A study of Oryctolagus cuniculus with 4 samples.

Results

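PTHLH is the gene for parathyroid hormone-related protein (PTHrP), and it was followed here as 1 of 18475 genes in single-cell RNA sequencing of the rabbit bladder. The gene was found by its symbol (identifier ENSOCUG00000013864), and it was chosen because it had led a KRT5-rich set of urothelial cells in these same data, so its levels by cell class and by KRT5 are a description and were not tested. PTHrP is a secreted peptide that acts mostly on nearby cells through the receptor PTH1R, a G protein-coupled receptor that raises cyclic AMP through Gs and can also act through Gq and phospholipase C. In epithelia and skin keratinocytes it takes part in growth and differentiation, in the mammary gland and at the growth plate it carries signals between neighbouring tissues, and in the walls of vessels and the bladder it relaxes smooth muscle.

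Each of the 4 libraries came from the bladder mucosa of adult New Zealand rabbits. Injury_1 and Injury_2 came from wounded bladders on day 10 after part of the mucosa had been cut away, with the wound freshly re-epithelialized, and Normal_1 and Normal_2 came from bladders at rest. The samples carry no further treatment in the labels, all libraries went through the same collagenase digestion and droplet capture of RNA 3′ ends, and the libraries of a group are described by the study as biological replicates. The sex of the animals was not given in the sources used here. With 2 samples per group, the spread between samples rests on a single difference in each group.

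The filter on cells kept 21945 of 25659 barcodes, with 4308 to 6081 cells per library, and the deposited libraries held 28745017 to 47881609 UMIs (unique molecular identifiers, each counting 1 captured molecule). Normal_1 was the shallowest, with a median of 4813.5 UMIs per kept cell against 6755 to 7186 in the other libraries. The labels give the tissue as urothelium, yet epithelial-like cells, whose clusters had KRT15 and KRT18 among their leading genes, were 2.82 to 10.2% of cells, while fibroblast-like cells were 28.6 to 54.1% and endothelial-like cells 15.8 to 41.2%. Any pair of libraries shared 8 to 13 cell barcodes. Of the 27 clusters of cells, 5 (811 cells) stayed unnamed, and the other clusters were given 10 class names from marker genes.

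PTHLH was a gene of moderate level with many sources. There were 7595 PTHLH UMIs in 3374 of the kept cells. Over all kept cells of a library it stood at 45.9 counts per 1000000 UMIs (CPM) in Injury_1, 52.8 CPM in Injury_2, 56.3 CPM in Normal_1 and 41.6 CPM in Normal_2, so that the 2 groups overlapped. The share of cells with a PTHLH UMI was 15.3% and 16.5% in the injured bladders and 15.5% and 14.3% in the normal ones.

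The cells behind these totals differed between the libraries. Endothelial-like cells held 49.4% and 36.6% of the PTHLH UMIs in the injured bladders and 47.6% and 34.2% in the normal ones. Fibroblast-like cells held 33.4% and 52.4% in the injured and 8.52% and 54.3% in the normal bladders. Epithelial-like cells held 10.2%, 5.03%, 40.9% and 6.07% in the same order, so Normal_1 was the library in which the epithelium gave a large part of the PTHLH.

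**Figure D1:**
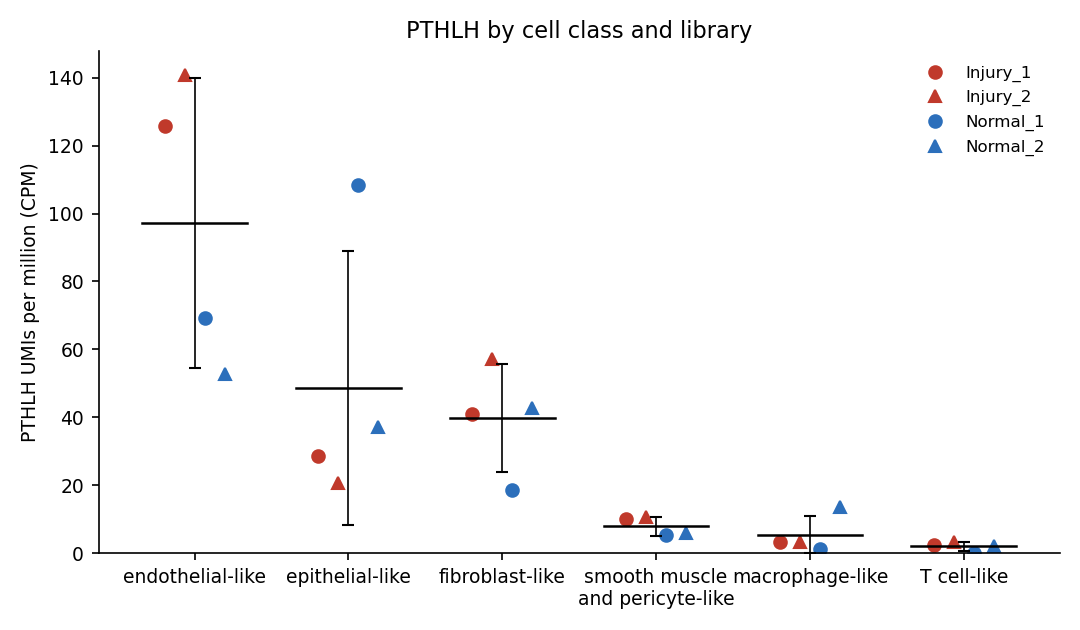
PTHLH level (CPM) in the cell classes with at least 20 cells in every library, 1 point per library, with the mean (line) and SD of the 4 libraries (bar, cut at 0). Endothelial-like cells were at 52.6 to 141 CPM, epithelial-like and fibroblast-like cells had lower means, in Normal_1 the epithelial-like value (108 CPM) was above the endothelial-like one (69.3 CPM), and T cell-like cells were at 0 to 3.40 CPM.

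Among the classes with at least 20 cells in every library, the endothelial-like class had the highest mean PTHLH, 97.1 ± 42.7 CPM (SD, n = 4). It measured 126 CPM in Injury_1, 141 CPM in Injury_2, 69.3 CPM in Normal_1 and 52.6 CPM in Normal_2. A PTHLH UMI was found in 38.1% and 37.3% of these cells in the injured bladders and in 22.9% and 21.8% in the normal ones. Both injured libraries were thus above both normal ones on either measure.

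The epithelial-like class averaged 48.7 ± 40.3 CPM (SD, n = 4), with 28.7 CPM in Injury_1, 20.7 CPM in Injury_2, 108 CPM in Normal_1 and 37.1 CPM in Normal_2. Both injured libraries were below both normal ones here, and most of the spread came from Normal_1. The fibroblast-like class averaged 39.8 ± 16.0 CPM (SD, n = 4), with 41.0 and 57.1 CPM in the injured and 18.5 and 42.7 CPM in the normal bladders, and these groups overlapped.

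Smooth muscle and pericyte-like cells, the contractile and vessel-wrapping cells of the bladder wall, were far lower at 7.94 ± 2.83 CPM (SD, n = 4). They stood at 10.0 and 10.7 CPM in the injured and at 5.23 and 5.80 CPM in the normal bladders. Macrophage-like cells had 3.28, 3.42, 1.33 and 13.6 CPM in Injury_1, Injury_2, Normal_1 and Normal_2, and of the 12 UMIs in Normal_2, 11 lay in a single cell.

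T cell-like cells, which are not a known source of the peptide in the bladder, were taken as a measure of free RNA. A PTHLH UMI was seen in 0.882%, 1.27%, 0% and 0.943% of them, at median depths of 3062 to 3906.5 UMIs per cell, and the count of 0 in Normal_1 allowed up to 9.21 CPM (3 counts). The shares in endothelial-like, epithelial-like and fibroblast-like cells were above this in every library, also when each cell was thinned to 1000 UMIs. At that depth, 4.26 to 10.3% of endothelial-like, 1.74 to 8.42% of epithelial-like and 1.52 to 4.71% of fibroblast-like cells would be expected to show a PTHLH UMI, against 0 to 0.417% of T cell-like cells.

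Ordered by their means, the classes ran from endothelial-like through epithelial-like, fibroblast-like, smooth muscle and pericyte-like and macrophage-like to T cell-like cells. Neighbours in this order overlapped across libraries at every step but one, between fibroblast-like cells, at least 18.5 CPM, and smooth muscle and pericyte-like cells, at most 10.7 CPM. The place of the epithelium rests on Normal_1: without it the epithelial-like mean was 28.8 CPM, and fibroblast-like cells were above epithelial-like cells in the other 3 libraries. Glial or neurone-like cells had 30.5, 61.4, 94.0 and 38.1 CPM, but on only 7 to 47 cells and 26 UMIs in all. Neutrophil-like cells, with 2 UMIs in 1 of 5 cells of Normal_1, and mast cell-like cells, with 1 UMI in 7 cells of it, gave values too imprecise to place.

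Within the classes PTHLH was concentrated in a few clusters. The highest was cluster 3, a fibroblast-like cluster of 1792 cells led by ADAMDEC1, HHIP and PTPRQ, whose score for fibroblast markers (0.81) was only a little above its score for smooth muscle and pericyte markers (0.70). HHIP binds hedgehog ligands outside the cell. PTHLH in cluster 3 was 252 CPM in Injury_1, 316 CPM in Injury_2, 66.6 CPM in Normal_1 and 118 CPM in Normal_2, with both injured libraries above both normal ones.

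Cluster 3 made up a minority of the fibroblast-like cells and held the majority of their PTHLH. It was 9.19% and 12.8% of the class in the injured and 21.6% and 31.7% in the normal bladders, and it held 52.6% and 65.3% of the fibroblast-like PTHLH UMIs in the injured and 84.0% and 89.7% in the normal ones. A UMI was found in 58.6%, 69.8%, 23.3% and 33.7% of its cells, and the highest count in a single cell was 19, 24, 6 and 19.

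The other fibroblast-like clusters were lower. Cluster 1, led by DCN, DPT and OGN, had 28.8 and 51.3 CPM in the injured and 5.22 and 10.3 CPM in the normal bladders. Cluster 5, led by LUM and APOD, had 30.5 and 23.3 CPM against 1.99 and 2.25 CPM. Cluster 2, led by SFRP2, SERPINF1 and IGFBP6, averaged 10.3 CPM, and cluster 6, led by IGFBP6, DCN and SFRP2, averaged 3.86 CPM.

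**Figure D2:**
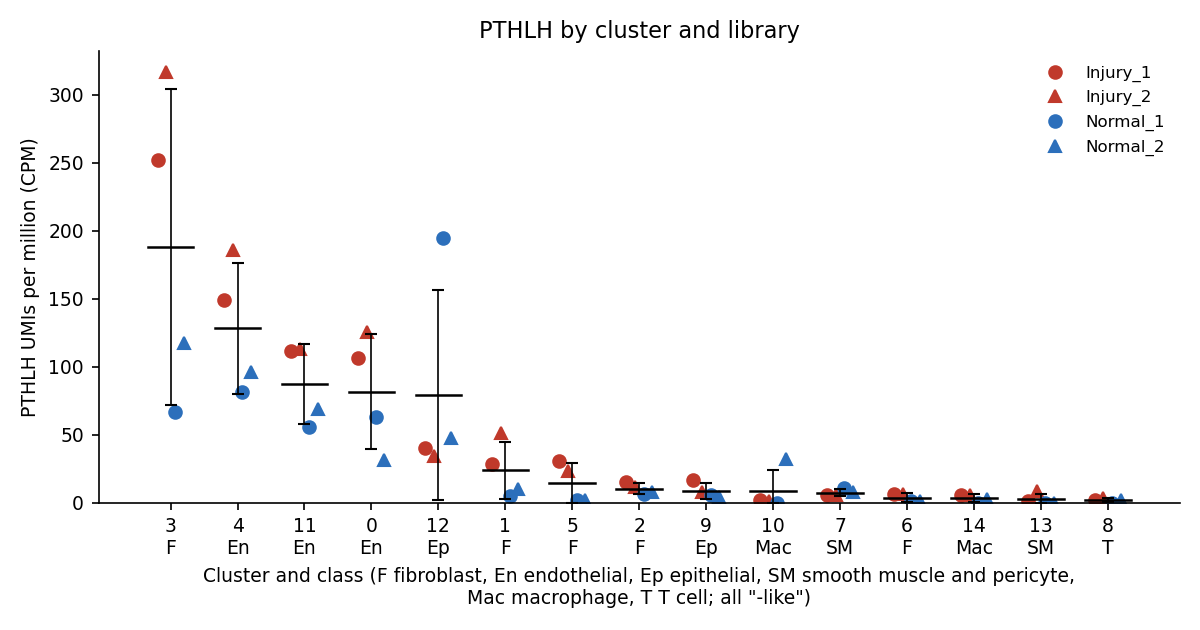
PTHLH level (CPM) in every named cluster with at least 20 cells in each library, 1 point per library, with the mean (line) and SD of the 4 libraries (bar, cut at 0). Cluster 3 led with 66.6 to 316 CPM, the endothelial-like clusters 4, 11 and 0 followed, and in the epithelial-like cluster 12 the value of Normal_1, 195 CPM, stood above the other libraries.

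In endothelial-like cells PTHLH was spread more evenly. Cluster 4, led by the adhesion receptors SELP and SELE that venous endothelium displays to leukocytes, had 149, 186, 81.3 and 96.1 CPM in Injury_1, Injury_2, Normal_1 and Normal_2. Cluster 11, led by TM4SF1 and CD93, had 112, 113, 55.4 and 69.0 CPM, and cluster 0, led by ESM1 and VWF, had 106, 126, 63.4 and 31.5 CPM. In each of these 3 clusters the injured libraries were above the normal ones.

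The small endothelial-like cluster 25, which was led by CCL21, PROX1 and LYVE1, held only 10 PTHLH UMIs in 89 cells. Among the contractile cells, cluster 7, led by RGS4 and RGS5, had 5.79, 5.54, 10.7 and 7.64 CPM, and cluster 13, led by MYH11 and ACTA2, had 1.52 and 8.37 CPM in the injured and no PTHLH UMI in the normal bladders. The counts of 0 in cluster 13 allowed up to 3.52 CPM in Normal_1 and 3.78 CPM in Normal_2. Cluster 22, with the visceral smooth muscle genes ACTG2 and DES among its leading genes, had 94.3 and 59.4 CPM in the injured and 0 and 11.4 CPM in the normal bladders, but it had 35 UMIs over 116 cells. Its count of 0 in Normal_1, on 7 cells, allowed up to 104 CPM (3 counts), and Normal_2 had 4 UMIs.

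The epithelium split into a pair of clusters. Cluster 12, in which 50.2% of cells had a KRT5 UMI and 27.6% a UPK3B UMI, held 904 of the 1007 epithelial-like PTHLH UMIs. Its PTHLH was 40.4 CPM in Injury_1, 34.1 CPM in Injury_2, 195 CPM in Normal_1 and 47.6 CPM in Normal_2. Cluster 9, in which 13.6% of cells had KRT5 and 68.1% UPK3B, had 17.1 and 8.23 CPM in the injured and 5.81 and 4.14 CPM in the normal bladders.

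KRT5 is the keratin of basal cells, and UPK3B encodes a uroplakin of the plaques that cover the superficial cells. The rule that chose PTHLH used these strata, and the values are given as a description. Cells with KRT5 and without UPK3B had 83.1 CPM of PTHLH in Injury_1, 39.6 CPM in Injury_2, 191 CPM in Normal_1 and 59.4 CPM in Normal_2. This stratum was the highest of the 4 in every library.

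Cells with neither gene had 48.9, 20.4, 95.4 and 24.1 CPM in the same order of libraries. Cells with both had 19.2, 12.5, 36.0 and 24.3 CPM, on 52, 62, 12 and 6 cells. Cells with UPK3B alone had 16.9, 14.4, 7.86 and 15.1 CPM, the narrowest range, and were the lowest stratum in Injury_1, Normal_1 and Normal_2. Their mean was 13.6 CPM, or 7.55 CPM when 2 UMIs were asked of each gene.

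The share of cells with a PTHLH UMI was 45.7%, 32.3%, 70.1% and 42.1% with KRT5 alone against 14.1%, 14.1%, 4.85% and 10.5% with UPK3B alone. With every cell thinned to 1000 UMIs the expected shares were 8.32%, 3.64%, 16.2% and 5.75% against 1.80%, 1.35%, 0.752% and 1.06%. KRT5 was also missed in shallow cells, so the stratum without KRT5 can hold cells that express it.

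**Figure D3:**
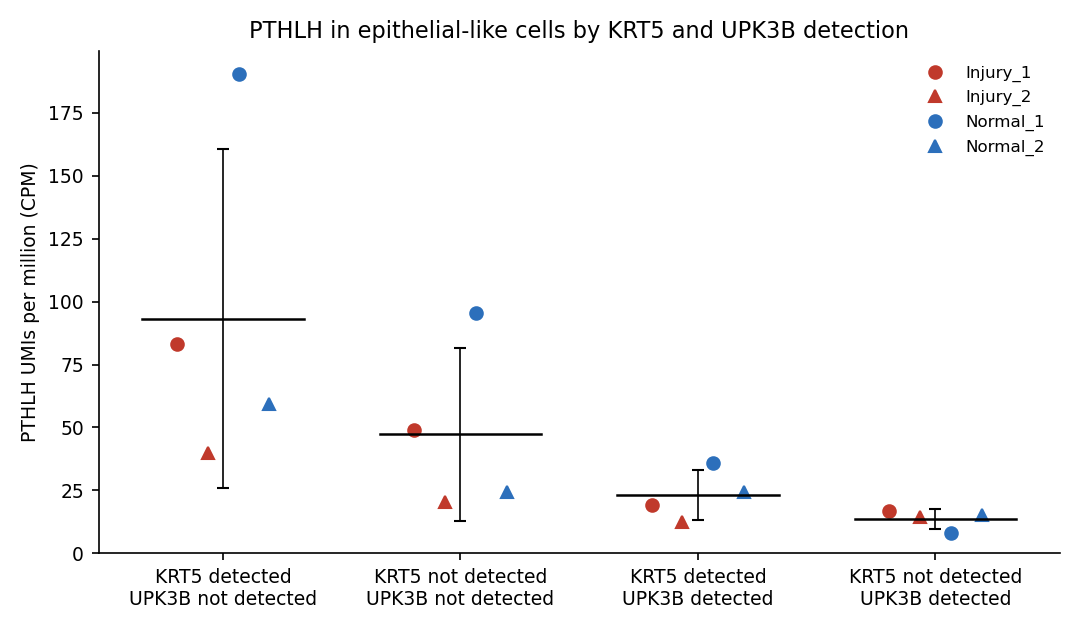
PTHLH level (CPM) in epithelial-like cells grouped by whether a KRT5 and a UPK3B UMI was found, 1 point per library, with the mean (line) and SD of the 4 libraries (bar). Cells with KRT5 and without UPK3B were at 39.6 to 191 CPM, and cells with UPK3B and without KRT5 at 7.86 to 16.9 CPM.

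PTHLH did not rise with KRT5 by the same amount in each library. In Normal_1 PTHLH went from 59.2 CPM in cells with no KRT5 UMI to 96.6 CPM with 1 UMI, 130 CPM with 2 to 4 UMIs and 242 CPM with 5 or more. In Normal_2 the values were 22.4, 77.5, 74.5 and 30.4 CPM, so the cells with the most KRT5 were not the highest. In Injury_1 PTHLH was 21.6 CPM with no KRT5 UMI and 64.8 CPM with 5 or more. The rise there was not steady, since the 34.4 CPM at 2 to 4 UMIs lay below the level at 1 UMI. In Injury_2 PTHLH went from 16.6 through 22.3 and 23.7 to 33.6 CPM. The top step held 24 to 76 cells per library.

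Cells with TP63, the transcription factor of basal and intermediate urothelium, did not stand apart in the same way. They had 29.0, 40.1, 102 and 33.7 CPM of PTHLH against 28.6, 13.3, 110 and 38.9 CPM in epithelial-like cells without TP63. The TP63 cells were above the rest by a wide margin in Injury_2 and below them in both normal libraries.

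Injury and normal bladders were then compared on UMI counts summed per library, with edgeR over all genes that passed its filter and Benjamini-Hochberg adjustment. The question is whether PTHLH differs in the healing mucosa, and the condition was not used to choose the gene. For a single value, an exact permutation test of 2 libraries against 2 cannot go below 0.33. In epithelial-like cells 122 of 7041 genes were called (1.73%), 47 of them higher (0.668%) and 75 lower (1.07%) after injury.

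PTHLH was lower in the injured epithelium by 1.76 on the log2 scale but was not among the called genes (log2 fold change -1.76, SE 0.44, edgeR adjusted p = 0.103, unadjusted p = 0.0069). All injured libraries lay below all normal ones, as they did for 15.6% of the genes tested. Over the alternatives the adjusted p ran from 2.2e-05 to 0.317, and DESeq2 gave 0.00638. At a mitochondrial limit of 10%, which kept 414 of 566 and 228 of 354 injured but 192 of 441 and 69 of 170 normal cells, the log2 fold change was -1.47 (edgeR adjusted p = 0.242).

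The size of this difference depended on Normal_1. Without Normal_1 the log2 fold change was -0.97 (edgeR adjusted p = 0.0957), and without Normal_2 it was -2.25 (adjusted p = 0.018). The make-up of the epithelium moved as well: KRT5-detected cells made up 17.3% and 35.9% of the epithelial-like cells of the injured and 36.1% and 37.1% of those of the normal bladders, the injured mean minus the normal mean being -9.96 percentage points (two-sided exact permutation p = 0.33). Without Injury_1 that difference was -0.681 points. Cells with UPK3B alone, the stratum with the lowest mean PTHLH, numbered 383 of 566 and 142 of 354 in the injured and 103 of 441 and 19 of 170 in the normal bladders. Cluster 9, the epithelial-like cluster low in PTHLH, held 65.2% and 60.7% of the class in the injured and 54.2% and 33.5% in the normal bladders. The part of this make-up in the PTHLH difference was not tested beyond the KRT5 split and the single clusters.

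Within KRT5-detected cells alone PTHLH was 50.8 and 26.5 CPM in the injured and 177 and 57.1 CPM in the normal bladders. The log2 fold change was -1.95 (SE 0.53, edgeR adjusted p = 0.0821), in a comparison that called 341 of 5723 genes (5.96%) and had all injured below all normal libraries for 14.8%. It passed the threshold with DESeq2 (-1.96, adjusted p = 0.00504), with no filter on low counts (-1.92, edgeR adjusted p = 6.7e-08), with the replicate number as a block (-1.82, adjusted p = 0.0314), without Injury_1 (-2.39, adjusted p = 0.0307) and without Normal_2 (-2.50, adjusted p = 0.000329), and it was -1.01 without Normal_1 (adjusted p = 0.106).

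Within KRT5-undetected cells PTHLH was 21.6 and 16.6 CPM in the injured and 59.2 and 22.4 CPM in the normal bladders. The log2 fold change was -1.25 (SE 0.42, edgeR adjusted p = 0.25), with 4 of 6299 genes called (0.0635%) and 14.3% of genes lower in all injured libraries. Without Normal_2 it was -1.65 (adjusted p = 0.0248), and without Normal_1 it was -0.58 (adjusted p = 0.342). With cells limited to 10% mitochondrial UMIs, which left 125 and 53 of the 282 and 107 normal cells, it was -0.62 (edgeR adjusted p = 0.612). The fold change was negative on either side of the KRT5 split, but the KRT5-undetected cells were not of one kind: 383 of 468 and 142 of 227 had UPK3B in the injured bladders and 103 of 282 and 19 of 107 in the normal ones. By the 4 strata, the mean PTHLH was 61.4 CPM after injury against 125 CPM in normal cells with KRT5 alone, 34.7 against 59.8 CPM with neither gene, 15.9 against 30.2 CPM with both, and 15.6 against 11.5 CPM with UPK3B alone. The normal means with KRT5 alone and with neither gene were carried by Normal_1 (191 and 95.4 CPM), and Injury_1 (83.1 and 48.9 CPM) was above Normal_2 (59.4 and 24.1 CPM) in both strata. With both genes the normal bladders had only 7 and 2 UMIs, and the 24.3 CPM of Normal_2 were below the 36.4 CPM of 3 counts. With UPK3B alone they had 10 and 5 UMIs, so the means of these strata are imprecise.

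**Figure D4:**
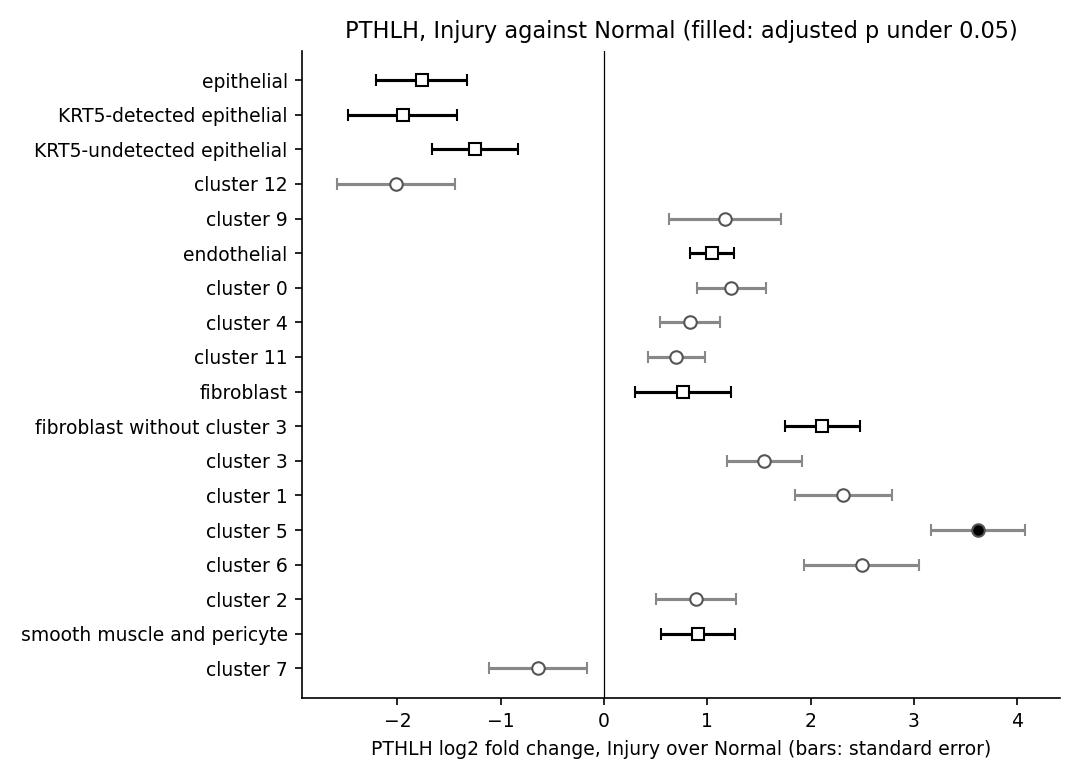
Log2 fold change of PTHLH, Injury over Normal, from edgeR on counts summed per library, with its standard error. Squares are classes and strata, circles are single clusters, and a filled symbol marks an adjusted p under 0.05, which only cluster 5 reached. The epithelial-like fits lie below 0 except cluster 9, and the fits of endothelial-like and fibroblast-like cells lie above 0.

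In the endothelial-like, fibroblast-like and smooth muscle and pericyte-like classes the fold change of PTHLH was positive. In endothelial-like cells PTHLH was higher after injury by a log2 fold change of 1.05 (SE 0.21), and the edgeR adjusted p was 0.517 with an unadjusted p of 0.00281. In that comparison 0 of 7494 genes were called by edgeR (0%), with 528 at an unadjusted p under 0.05 and 56 called by DESeq2, where PTHLH had an adjusted p of 0.0468. Both injured libraries were above both normal ones for 24.4% of these genes.

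In fibroblast-like cells as a whole the log2 fold change was 0.76 (SE 0.46, edgeR adjusted p = 0.642), with 0 of 8769 genes called by edgeR (0%), 966 at an unadjusted p under 0.05 and 272 called by DESeq2. It was 0.26 without Normal_1 and 1.59 without Normal_2. The share of cluster 3, the PTHLH-rich cluster, was larger in the normal bladders, and with cluster 3 left out, a choice made with the values known, the log2 fold change was 2.11 (SE 0.37, edgeR adjusted p = 0.11, DESeq2 adjusted p = 0.000248), with 11 of 8411 genes called (0.131%). With the replicate number as a block it was 2.18 (edgeR adjusted p = 0.000246).

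In smooth muscle and pericyte-like cells it was 0.91 (SE 0.36, edgeR adjusted p = 0.504), on 9 to 33 PTHLH UMIs per library, with 0 of 6492 genes called by edgeR (0%), 617 at an unadjusted p under 0.05 and 68 called by DESeq2. Both injured libraries were above both normal ones for 20.3% of these genes, PTHLH among them. Within the class, cluster 22 held 16 of the 29 PTHLH UMIs of Injury_1 and 15 of the 33 of Injury_2, on 24 and 30 cells. Cluster 13, with no PTHLH UMI in the normal bladders, was 21.1% and 24.3% of the class in the injured and 48.4% and 33.3% in the normal bladders, and the part of this make-up in the class value was not tested. The median log2 fold change of all genes tested lay between -0.01 and 0.00 in the 4 classes.

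Single clusters were fitted as an addition, once the class results were known. PTHLH could be fitted in 11 clusters, had a log2 fold change above 0 in 9 of them and was called in 1, without adjustment over the clusters. Both injured libraries were above both normal ones in those 9 and below in the other two, clusters 7 and 12. The call was in cluster 5, the LUM and APOD cluster, where 92 of 6485 genes were called (1.42%) and 25.9% were higher in both injured libraries. There PTHLH had 151 UMIs in 559 cells of Injury_1, 116 UMIs in 563 cells of Injury_2, 2 UMIs in 223 cells of Normal_1 and 4 UMIs in 314 cells of Normal_2.

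The log2 fold change in cluster 5 was 3.62 (SE 0.46, edgeR adjusted p = 0.0187). Neither its size nor its call is firm, since PTHLH passed the filter on low counts through the injured libraries. The 1.99 CPM of Normal_1 were below the 2.98 CPM that 3 counts give there. The log2 fold change stayed between 3.42 and 3.83 when each library was left out in turn. With no filter on low counts the edgeR adjusted p was 0.138 and no gene was called, with 1191 at an unadjusted p under 0.05. The median depth of these cells was 8628 and 8256 UMIs in the injured and 4529 and 5626 in the normal bladders, and the part of depth in the result was not tested beyond the scaling by library size. Beside the cluster 5 values, T cell-like cells of the same libraries had 2.43 CPM in Injury_1, 3.40 CPM in Injury_2, a count of 0 in Normal_1 that allowed up to 9.21 CPM, and 2.14 CPM in Normal_2.

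The other fibroblast-like clusters had values of the same sign that missed the threshold. The log2 fold change was 2.32 in cluster 1 (SE 0.47, edgeR adjusted p = 0.215), 2.49 in cluster 6 (SE 0.56, adjusted p = 0.31), 1.55 in cluster 3 (SE 0.36, adjusted p = 0.254) and 0.89 in cluster 2 (SE 0.39, adjusted p = 0.533). In cluster 6 PTHLH passed the filter on low counts through the injured libraries (16 and 23 UMIs). The normal ones had 2 and 4 UMIs, and the 1.52 CPM of Normal_1 were below the 2.28 CPM of 3 counts. The exact size in cluster 6 is thus uncertain, and it is not read as support. DESeq2 gave adjusted p of 0.00557 in cluster 1 and 0.0237 in cluster 3, and with the replicate number as a block edgeR gave 2.42 in cluster 1 (adjusted p = 0.0128). Normal_1 had only 7 PTHLH UMIs in cluster 1 and 8 in cluster 2, so the sizes in these clusters are imprecise as well. In cluster 1 the value ran from 1.88 without Injury_2 to 2.99 without Normal_2, and in cluster 3 from 1.23 without Normal_1 to 2.02 without Normal_2. The genes called were 0.0452% in cluster 1, 0.285% in cluster 3 and 0.0742% in cluster 2, and in cluster 6 none (0%), with 491 at an unadjusted p under 0.05 and 72 by DESeq2. All injured libraries were above all normal ones for 16.6%, 23.7%, 20.3% and 14.3% of genes in clusters 1, 3, 2 and 6.

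Among the endothelial-like clusters the log2 fold change was 1.23 in cluster 0 (SE 0.33, edgeR adjusted p = 0.431), 0.83 in cluster 4 (SE 0.29, adjusted p = 1) and 0.70 in cluster 11 (SE 0.27, adjusted p = 0.516). Without Normal_1 the value in cluster 0 was 1.72 (adjusted p = 0.00834). The genes called were 0.0626% in cluster 0 and none in clusters 4 and 11 (0%), where 262 and 479 genes had an unadjusted p under 0.05 and DESeq2 called 13 and 19. All injured libraries were above all normal ones for 26.7%, 19.9% and 28.6% of genes in clusters 0, 4 and 11.

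In the epithelium it was -2.01 in the KRT5-rich cluster 12 (SE 0.57, edgeR adjusted p = 0.0965) and 1.17 in cluster 9 (SE 0.54, adjusted p = 0.399). Without Normal_1 the value in cluster 12 was -0.76 (adjusted p = 0.0997), and without Normal_2 it was -2.66 (adjusted p = 0.000899). It also passed with DESeq2 (-2.03, adjusted p = 0.00618) and with no filter on low counts (-1.97, edgeR adjusted p = 1.79e-07). Cluster 12 had 5.25% of its genes called and 14.1% lower in all injured libraries, and cluster 9 had 0.179% called and 29.5% higher. Without Injury_1 the value in cluster 9 was 0.60, and the 4.14 CPM of Normal_2 in this cluster were 3 UMIs in 1 of 57 cells. In the contractile cluster 7 PTHLH had a log2 fold change of -0.64 (SE 0.47, adjusted p = 0.743), with no gene called (0%), 547 at an unadjusted p under 0.05, 78 by DESeq2, and 20.6% lower in all injured libraries. PTHLH had only 9 to 12 UMIs per library there.

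The receptor PTH1R was found mainly in contractile and fibroblast-like cells. Smooth muscle and pericyte-like cells had 102 CPM of PTH1R in Injury_1, 123 CPM in Injury_2, 108 CPM in Normal_1 and 156 CPM in Normal_2, and a UMI in 39.1% of cells. Fibroblast-like cells had 27.6 and 36.5 CPM in the injured and 46.8 and 70.0 CPM in the normal bladders. Endothelial-like cells were at 0.498 to 3.41 CPM and epithelial-like cells at 0.379 to 3.31 CPM, in the range of T cell-like cells (0 to 4.37 CPM).

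**Figure D5:**
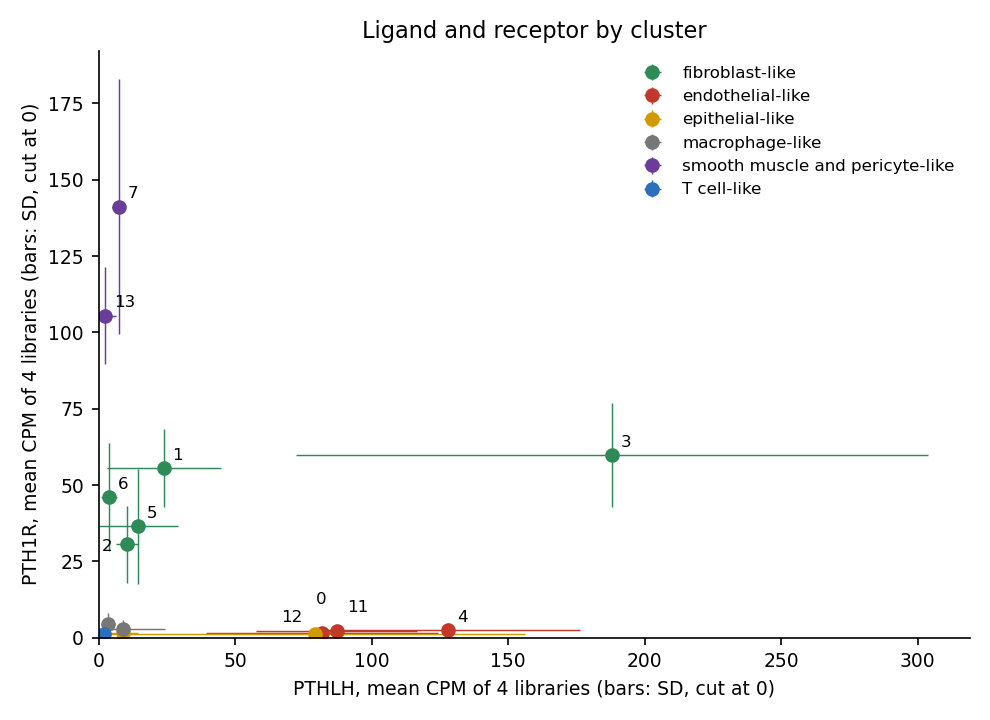
Mean CPM of PTHLH (horizontal) and of its receptor PTH1R (vertical) in each named cluster with at least 20 cells in every library, with the SD of the 4 libraries (bars, cut at 0). The endothelial-like clusters and epithelial-like cluster 12 had PTHLH with almost no PTH1R, the contractile clusters 7 and 13 had PTH1R with little PTHLH, and fibroblast-like cluster 3 had both.

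By cluster, PTH1R was highest in the contractile clusters, cluster 7 (141 ± 41.9 CPM, SD, n = 4) and cluster 13 (106 ± 15.9 CPM, SD, n = 4). Cluster 22, with ACTG2 and DES, had 47.2, 47.6, 69.4 and 73.8 CPM. Fibroblast-like cluster 3, the richest in PTHLH, also had 42.1 and 49.3 CPM of PTH1R in the injured and 69.2 and 78.9 CPM in the normal bladders. The other fibroblast-like clusters had means of 30.6 to 55.7 CPM, below that of cluster 3 but with overlapping libraries.

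PTH1R did not pass the test in any class. Its log2 fold change was -0.76 in fibroblast-like cells (SE 0.32, edgeR adjusted p = 0.48) and -0.22 in smooth muscle and pericyte-like cells (SE 0.29, adjusted p = 0.854). It was negative in all 5 fibroblast-like clusters, with adjusted p of 0.423 or more. Without Normal_2 it turned to 0.07 in cluster 5, 0.00 in cluster 6 and 0.14 in smooth muscle and pericyte-like cells, and stayed negative in fibroblast-like cells (-0.36) and clusters 1, 2 and 3. Without Normal_1 it was -1.07 in fibroblast-like cells (edgeR adjusted p = 0.154) and passed in cluster 3 (-0.83, adjusted p = 0.0259). PTH, which shares the receptor, had 2, 6, 2 and 5 UMIs over all barcodes of Injury_1, Injury_2, Normal_1 and Normal_2, and PTH2 and PTH2R had no symbol in the files.

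The genes that process PTHrP or break it down were measured beside it. In the epithelium 1 of 4 tested genes of this list was called lower, against 1.07% of all genes: PCSK5, a proprotein convertase, fell from 56.5 and 35.1 CPM in the normal to 10.9 and 8.19 CPM in the injured bladders (log2 fold change -2.49, SE 0.30, edgeR adjusted p = 0.0289). In fibroblast-like cells PCSK5 had 234 and 178 CPM in the injured and 87.0 and 102 CPM in the normal bladders (log2 fold change 1.24, adjusted p = 0.223). MME, a peptidase of the cell surface, averaged 42.1 CPM in cluster 3 and at most 12.1 CPM in the other fibroblast-like clusters.

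A list on possible induction of PTHLH held ligands together with receptors, signal carriers and targets of their pathways. Of its 17 tested genes, 1 was called higher and 1 lower in the injured epithelium, where 0.668% and 1.07% of all genes were. HBEGF, a ligand of the EGF receptor, fell from 424 and 315 CPM to 169 and 126 CPM (log2 fold change -1.57, SE 0.25, edgeR adjusted p = 0.0462). IHH, a hedgehog ligand, had 17.9 and 16.6 CPM in the injured and 2 and 3 UMIs (0.379 and 0.994 CPM) in the normal bladders (edgeR adjusted p = 0.0299). It was the 1 called higher, but it passed the filter on low counts through the injured libraries. No fold is therefore given, and its call is not read as support. PTCH1, the hedgehog receptor and a target of the same pathway, averaged 28.3 CPM in the PTHLH-rich cluster 3 and 3.52 to 11.3 CPM in the other fibroblast-like clusters.

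None of 21 tested genes of this list was called in fibroblast-like cells by edgeR, as for all 8769 genes of that class (0%). AREG, a ligand of the EGF receptor, varied widely in cluster 3, with 3709 and 2206 CPM in the injured and 279 and 36.2 CPM in the normal bladders. EREG, another ligand of this receptor, had 273 and 130 CPM in injured and 0.930 and 0.639 CPM in normal fibroblast-like cells (log2 fold change 8.20, SE 0.58, edgeR adjusted p = 0.0599).

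Of the arms downstream of the receptor no gene was called by edgeR in the epithelium, where 1.73% of all genes were, and the other classes had no called gene at all (0%). For the Gs and cyclic AMP arm, 12 genes were tested in fibroblast-like cells with a median log2 fold change of 0.10, and 10 in smooth muscle and pericyte-like cells with a median of 0.16. For the Gq and phospholipase C arm the medians were -0.08 over 7 genes and -0.59 over 6 genes. Cyclic AMP-responsive genes had a median of 0.72 over 8 genes in fibroblast-like, 0.64 over 6 in endothelial-like, 0.24 over 5 in smooth muscle and pericyte-like and -0.19 over 7 in epithelial-like cells, where the medians over all genes were -0.01 to 0.00. DUSP1 had 1057 and 1103 CPM in injured and 181 and 604 CPM in normal fibroblast-like cells. It had the largest fold change of the list there (log2 fold change 1.55, SE 0.60, edgeR adjusted p = 0.439). Of the 8 genes, 7 were positive, and RUNX2 had -0.43. These medians are descriptions of the lists.

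Of the basal urothelial genes, the cells in which the epithelial PTHLH was highest, the median over 10 tested was -1.24 in the injured epithelium, and 3 were called lower, against 1.07% of all genes. ITGA2, an integrin that binds collagen, had 40.8 and 43.4 CPM in the injured and 144 and 128 CPM in the normal bladders (log2 fold change -1.94, edgeR adjusted p = 0.0268). LAMA3 and LAMB3, chains of the laminin beneath the basal cells, had log2 fold changes of -4.75 and -4.04 (adjusted p = 0.0272 and 0.0268). The superficial genes had a median of 0.79 over 7, with none called. The part of these basal genes in the PTHLH difference was not tested.

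The genes most like PTHLH in their levels were sought by Pearson's r of log2(CPM + 10). Over 33 sums of a class in a library they were CCDC149 (r = 0.86), SLC27A3, SPTBN1, EMP1, PRRG1, PTPRM, GJA1, MINDY2, DSTYK and LIMA1 (r = 0.81). Over 15 sums of an epithelial stratum in a library they were PLEK2 (r = 0.89), TLN1, COL4A5, ITGA2, SSR2, CCT3, PPARG, ARHGAP21, TRIB2 and CCT2 (r = 0.82). The sums share libraries and depth, and r is given as a description over 5374 and 3676 genes.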

How the data were processed

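Single-cell suspensions for 4 libraries of bladder mucosa were captured with 10x 3′ chemistry, and the authors deposited UMI counts per gene and barcode, made with Cell Ranger (6.0.1 in the file headers, and named with Seurat in the submitters' processing notes), unnormalized and with no later filter. The genome release was not given in the sources used here, and no coordinates or sequences were printed. The limits of the study were applied here, with barcodes kept from 500 UMIs and 200 genes upwards and mitochondrial UMIs (13 genes) limited to 15%. The cells left were not the number the study states.

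Libraries were integrated by canonical correlation and cells clustered (Seurat 5.3.0, R 4.3.3, 2000 variable genes, 30 components, resolution 0.8), and clusters were named from at least 3 raised markers of a class. The study's own cell labels were not used here, so class limits may differ from them. Scrublet in scanpy 1.11.5 called 336 doublets (1.53%), which were kept in the main values. CPM is UMIs of a gene per 1000000 UMIs of the summed cells. Shares at 1000 UMIs are expectations over all draws of UMIs. Intervals and floors (3 counts) cover counting error only.

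Counts were summed per library and tested with edgeR 4.0.16 (filterByExpr, TMM, quasi-likelihood, Benjamini-Hochberg, threshold 0.05), for groups with at least 20 cells in every library, and the procedure was tested on simulated data. DESeq2 1.42.0, other scalings, filters, doublet removal, resolution 0.3 and leaving out each library were alternatives. P-values measure the spread between these 4 samples. The gene, its strata and the gene lists were chosen with earlier results of these data known. Named genes were the ligands and receptors, list members past the threshold or with the highest level, and the 10 genes most like PTHLH; MME, PTCH1, PCSK5 and EREG in fibroblast-like cells, AREG in cluster 3 and DUSP1 were chosen after their values were seen. Tables were handled with Python 3.11.15, numpy 2.4.6, scipy 1.17.1 and pandas 2.3.3, and figures drawn with matplotlib 3.10.9.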

Additional observations from a re-analysis of the deposited data

Results flagged for a closer look

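The fold change of PTHLH had opposite signs in different classes, although in the main edgeR fit it passed the threshold in none of them. In epithelial-like cells both injured libraries were below both normal ones, while in endothelial-like and in smooth muscle and pericyte-like cells both were above. The fitted signs of clusters within a class were not alike: in smooth muscle and pericyte-like cells cluster 7, the largest, had a log2 fold change of -0.64, and in epithelial-like cells cluster 9 had 1.17. Both missed the threshold, on 9 to 12 UMIs per library in cluster 7 and only 3 UMIs in Normal_2 in cluster 9. Without Normal_1 the epithelial-like value was -0.97 in place of -1.76. Tested as a difference of the log2 fold changes, in a fit added after the data had been seen with each library as a block, it was 2.65 for endothelial-like minus epithelial-like cells (SE 0.40, edgeR adjusted p = 0.0535, or 0.0458 with the size factors of DESeq2). For smooth muscle and pericyte-like minus epithelial-like cells it was 2.50 (SE 0.51, adjusted p = 0.0579, or 0.0603). Fibroblast-like minus epithelial-like cells gave 2.48 (SE 0.77, adjusted p = 0.17) and endothelial-like minus fibroblast-like cells 0.19 (SE 0.44, adjusted p = 0.922). The main fit of endothelial-like minus epithelial-like cells called 28 of 8168 genes, or 53 with the size factors of DESeq2. That of smooth muscle and pericyte-like minus epithelial-like cells called 134 of 7456. Fibroblast-like minus epithelial-like cells had 126 of 8367 genes called, and endothelial-like minus fibroblast-like cells 5 of 8802. These comparisons share libraries, and they were not refitted without Normal_1.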

How the results depend on the processing

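The direction of PTHLH in the epithelium, in either KRT5 stratum and in endothelial-like, fibroblast-like and smooth muscle and pericyte-like cells was the same under every alternative fitted to these groups as a whole. The fitted sign of a single cluster could differ from that of its class, as in epithelial-like cluster 9 (1.17) and contractile cluster 7 (-0.64). Neither passed the threshold, and both rest on few UMIs. Cluster 9 had 3 UMIs in 1 cell of Normal_2, and cluster 7 had 9 to 12 UMIs per library. The side of the threshold was not always the same. In epithelial-like cells the log2 fold change passed it with no filter on low counts (-1.68) and with DESeq2 (-1.77), and leaving out each library gave -2.25 to -0.97. In KRT5-detected cells it passed with no filter (-1.92), with DESeq2 (-1.96) and with the replicate number as a block (-1.82), and leaving out each library gave -2.50 to -1.01. In KRT5-undetected cells the leave-one-out values were -1.65 to -0.58, and a mitochondrial limit of 10% gave -0.62, and in endothelial-like cells DESeq2 gave 1.05. The cause of these shifts was not tested. PTH1R changed sign without Normal_2, to 0.23 in endothelial-like (range -2.34 to 0.23) and 0.14 in smooth muscle and pericyte-like cells (range -0.51 to 0.14), and likewise to 0.07 and 0.00 in fibroblast-like clusters 5 and 6.

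The 122 genes called in the epithelium became 960 with no filter, 507 with DESeq2, 25 with the replicate block, 50 at a mitochondrial limit of 10% and 58 to 476 without single libraries. Called genes ran from 101 to 1377 in KRT5-detected cells, from 98 to 270 in KRT5-undetected cells and from 92 to 378 in cluster 5 when single libraries were left out, and cluster 5 had 0 with no filter (1191 at an unadjusted p under 0.05), 224 with DESeq2 and 503 with the replicate block. With no filter PTHLH also passed in clusters 0 (1.21), 1 (2.33), 3 (1.55) and 6 (2.50), and in the opposite direction in macrophage-like cluster 10 (-3.40), where 11 of the UMIs lay in Normal_2. In cluster 6 the normal bladders had only 2 and 4 PTHLH UMIs, so the exact size there is uncertain. Its level in cells with UPK3B alone was 7.55 CPM when 2 UMIs were asked of each gene, against 13.6 CPM.

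Nothing in the labels ties replicates of the same number. Their deviations from the group means had r = 0.196 for fibroblast-like, 0.142 for endothelial-like and 0.0906 for epithelial-like cells over genes, with 2 pairs, and the replicate block is given as an alternative only. The KRT5-detected fit at a mitochondrial limit of 10% was not run, since Normal_2 kept fewer than 20 such cells, and at that limit, which kept 379 and 334 injured but 88 and 86 normal smooth muscle and pericyte-like cells, PTHLH in these did not pass the filter on low counts. Single clusters and fibroblast-like cells without cluster 3 were alternatives chosen after seeing the data. Counts under about 10 UMIs per library limit the precision of any fold change. Such counts occurred in clusters 5 and 6 of the normal bladders. They also occurred in clusters 1, 2 and 7 of Normal_1 (7, 8 and 9 UMIs) and in cluster 9 of Normal_2 (3 UMIs).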
